A study of Mus musculus with 3 samples.

Results

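The genes described here are 10 checkpoint and costimulatory genes of T cells: the inhibitory receptor genes Pdcd1, Ctla4, Lag3, Btla, Tigit, Havcr2 and Cd160, the costimulatory receptor gene Icos, and Cd274 and Cd200, which encode surface ligands of inhibitory receptors. They were taken by symbol from the 50600 genes of the deposited tables. The RNA came from primary mouse T-helper 1 (Th1) cells, a subset of CD4 T cells known for the regulator T-bet and the cytokine interferon gamma. All libraries came from 1 group of 3 biological replicates of strain C57BL/6NJ with a shared donor record, and no age, sex or second condition is given. The labels call the RNA total RNA but cite a protocol document whose name refers to poly(A) RNA, and a 16 hr tag stands in the file headers alone. With 1 group there was no comparison between conditions, so genes were compared within each library and set against the spread between the 3 libraries.

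T cells need a second signal beside the T cell receptor to become fully active, and CD28 and its relative ICOS deliver it. Checkpoint receptors counter it: PD-1 and BTLA recruit phosphatases to the membrane, CTLA-4 competes with CD28 for the ligands CD80 and CD86, and LAG-3, TIGIT and TIM-3 bind other ligands. Many of these receptors are absent or low on resting cells and are induced when the T cell receptor is engaged. They are the targets of antibodies used against tumours.

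Of the 10 genes, 9 were detected, meaning a level of at least 1 TPM (the transcripts-per-million measure: counts per exon length scaled to the same total in each library) in every library. The same held for 39.8% of the 21764 protein-coding genes. Cd200 was the highest at 116.2 TPM ± 52.63 (SD, n = 3), followed by Btla at 88.52 ± 43.93, Pdcd1 at 56.02 ± 23.56 and Lag3 at 51.76 ± 22.68. Cd274 and Ctla4 lay at 39.61 ± 14.55 and 39.33 ± 13.78 TPM, Icos at 15.92 ± 6.222, Tigit at 8.412 ± 7.66 (4.07 without replicate 2) and Cd160 at 6.309 ± 2.526. Havcr2 had 0 counts in all 3 libraries, as did 41.4% of protein-coding genes. Replicate 3 was the lowest in TPM for all 9 detected genes, which was also the case for 72.9% of the detected protein-coding genes.

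**Figure D1:**
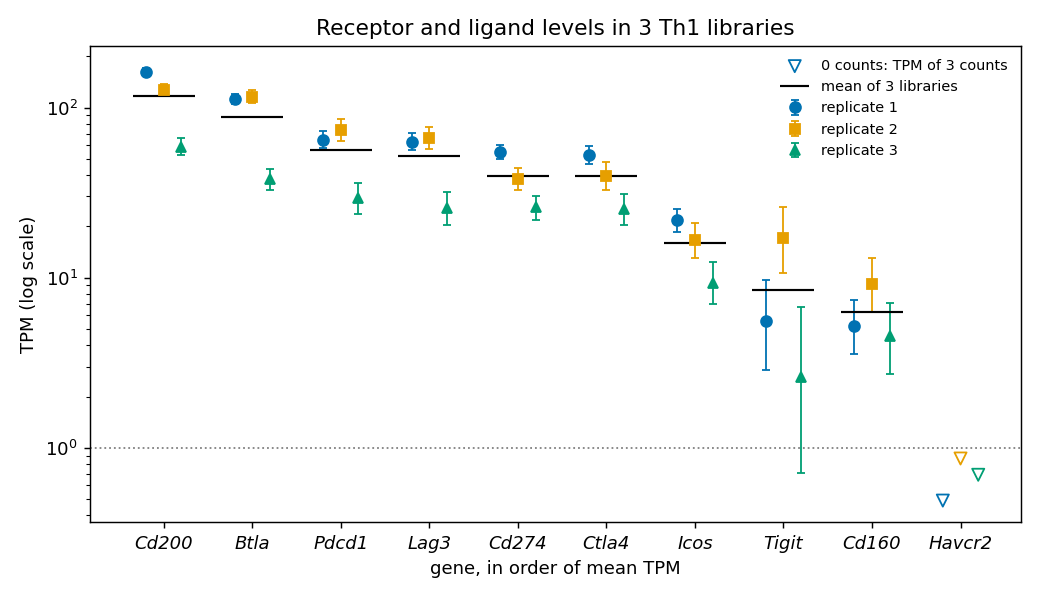
Level of each of the 10 genes in TPM on a log scale, with 1 point per library, exact 95% counting intervals as bars and the mean of 3 libraries as a line; the dotted line is 1 TPM. Levels run from 162.4 TPM for Cd200 in replicate 1 to 2.612 TPM for Tigit in replicate 3, replicate 3 is the lowest point for every detected gene, and the open triangles for Havcr2 mark the level that 3 counts would give.

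The libraries differed in depth and in where their counts fell. Deposited counts summed to 4764598, 2568928 and 2815439 in replicates 1, 2 and 3, and the 10 genes together held 3557, 1800 and 1000 of them. These are 0.0747%, 0.0701% and 0.0355% of the counts. Genes whose exons overlap exons of a gene on the other strand, 8189 of the 50600, held 56.1%, 60.3% and 71.6% of all counts. The mitochondrial gene mt-Nd6 exceeded mt-Co1, encoded on the other strand, 6.40, 10.3 and 24.5 times in counts per kilobase (a pair chosen with its values known). The deposited tables give counts for 1 strand of each gene, and what share of the read pairs from the 10 genes those counts hold is not known. Whether the strand setting used in counting fits the libraries was not tested. If it does not, the counts, and each level and order above and below, rest on reads from the strand opposite to these genes. Replicate 2 had counts on 12527 genes against 16838 and 15976 in replicates 1 and 3, and genes with exactly 1 count made up 3.43% of them against 11.4% and 11.8%. Whether any of this sets the levels above and below was not tested. Counting intervals cover counting error only, since reads without molecular identifiers are not independent molecules. Nothing in the labels says that the replicates came from separate animals, so a spread or p-value over them measures only the spread between these samples.

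Markers of T cells were present in every library. Each of 8 T cell genes passed 1 TPM in every library, with a summed level of 1710, 1400 and 891 TPM in replicates 1, 2 and 3. Among them, Trac, which encodes the constant region of the T cell receptor alpha chain, was at 339.0 TPM ± 122.5 (SD, n = 3). Cd4 was at 185.7 ± 60.26. The genes that define the labelled subset had few counts: Tbx21, which encodes T-bet, had 2, 10 and 2, or 0.357, 3.15 and 0.506 TPM, and Ifng, the interferon gamma gene, had 1, 0 and 0. Both were chosen with their values known. Foxp3, the master regulator of regulatory T cells, was listed at 125.3 TPM ± 29.55, with exons that overlap opposite-strand exons. Of other cell types, no B cell gene of 4, dendritic cell gene of 5 or natural killer cell gene of 4 was detected, and their sums reached 8.53, 4.8 and 0.15 TPM in any library. Their highest markers were Cd79a, Xcr1 and Klrb1c, and Ms4a1, Itgax, Flt3 and Clec9a had no counts. The dendritic cell result depended on the scale. With TPM recomputed over genes that have no exon inside the body of an opposite-strand gene, 2 of 4 dendritic cell genes passed 1 TPM in every library. No B cell or natural killer cell gene did. Of 5 macrophage genes 2 were detected in TPM over all genes, with a summed level of 125, 113 and 140 TPM. Nearly all of it was Csf1r at 123.6 TPM ± 12.75, whose exons overlap opposite-strand exons by 871 bases, while Lyz2, Adgre1 and Cd14 were at 0. Pecam1, at 3.012 TPM, was the detected endothelial gene of 3. Cd8a had no counts, while Cd8b1 stood at 17.4 TPM ± 10.7. The part of other cells in the levels of the 10 genes was not tested, and in a bulk sample fewer cells carrying a receptor and less RNA per cell cannot be told apart.

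Upstream sequence is shown for the genes at the ends of the order, the 3 highest and the 1 without counts. Each run is the 250 bases before the RefSeq start site (GRCm38.p6), 5′ to 3′ on the gene's own strand. RefSeq's table held windows for 8 of the 10 genes, and Icos and Lag3 were not among them. The regions are chr16:45409054-45409303 on the minus strand for Cd200, chr16:45224087-45224336 on the plus strand for Btla, chr1:94052554-94052803 on the minus strand for Pdcd1 and chr11:46454681-46454930 on the plus strand for Havcr2. Capitals mark matches on either strand to 1 of 5 letter patterns. GGAAA is the core bound by NFAT factors, and TGANTCA is the element of AP-1 factors. TTCNNNGAA stands for the GAS element of STAT factors. GGGCGG was taken as a GC box. TATAAA was taken as a TATA box. No matches to different patterns overlap in these 4 runs.
Cd200: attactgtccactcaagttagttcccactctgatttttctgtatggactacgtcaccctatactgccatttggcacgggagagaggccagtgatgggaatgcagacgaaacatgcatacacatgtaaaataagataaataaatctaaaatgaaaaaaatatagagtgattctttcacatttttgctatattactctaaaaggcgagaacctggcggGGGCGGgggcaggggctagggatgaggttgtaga
Btla: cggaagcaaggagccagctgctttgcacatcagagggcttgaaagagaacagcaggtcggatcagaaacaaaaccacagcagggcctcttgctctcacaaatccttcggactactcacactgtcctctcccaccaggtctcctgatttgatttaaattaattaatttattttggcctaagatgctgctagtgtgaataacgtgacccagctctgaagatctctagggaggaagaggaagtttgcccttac
Pdcd1: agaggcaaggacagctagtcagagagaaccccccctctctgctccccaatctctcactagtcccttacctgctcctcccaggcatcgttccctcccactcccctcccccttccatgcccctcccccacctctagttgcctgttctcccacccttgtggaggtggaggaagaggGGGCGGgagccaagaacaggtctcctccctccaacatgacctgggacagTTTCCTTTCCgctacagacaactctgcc
Havcr2: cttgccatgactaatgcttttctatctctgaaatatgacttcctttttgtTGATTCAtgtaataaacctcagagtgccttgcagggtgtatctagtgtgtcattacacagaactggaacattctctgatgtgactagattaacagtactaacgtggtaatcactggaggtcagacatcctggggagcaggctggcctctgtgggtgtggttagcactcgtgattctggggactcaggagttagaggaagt

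Pdcd1 carried 2 NFAT cores in adjoining positions on the opposite strand, starting 28 and 23 bases before the start site, and a GC box at 77 bases. Cd200 had a GC box at 34 bases and no other match, Btla had no match, and Havcr2 had 1 AP-1 match at 200 bases. Over the 8 genes with a window, 5 held an NFAT core, against 55.6% of all 32851 windows. A GC box stood in 4 of the 8 genes (32.7% of windows), AP-1 in 1 (6.75%), GAS in 1 (7.02%) and a TATA box in none (12.4%). Genes were counted if any of their windows matched, while the shares are per window. Cd160 had 2 windows, and its NFAT, GAS and GC box matches were all in window 2. GC content was 60.4% for Pdcd1, 47.2% for Btla, 44.8% for Havcr2 and 42.4% for Cd200. These are matches of letters and not mapped binding sites, and the 4 runs show no pattern that is shared by the 3 high genes.

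Btla, Pdcd1 and Ctla4 encode inhibitory receptors, of which CTLA-4 and PD-1 are relatives of CD28. Btla (ENSMUSG00000052013.14, chr16:45224315-45252895, plus strand of mm10, 3257 exon bases), whose product binds HVEM, had 822, 481 and 196 counts in replicates 1, 2 and 3. Its level was 111.9, 115.8 and 37.85 TPM. Replicates 1 and 2 were nearly equal and replicate 3 stood well below them. Pdcd1 (ENSMUSG00000026285.7, chr1:94038305-94052553, minus strand, 1930 exon bases) encodes PD-1, the receptor for PD-L1 and PD-L2. It had 282, 182 and 90 counts, or 64.81, 73.93 and 29.33 TPM, again with replicate 2 the highest and replicate 3 the lowest. Ctla4 (ENSMUSG00000026011.13, chr1:60887000-60915832, plus strand, 2330 exon bases) had 278, 118 and 94 counts, or 52.92, 39.7 and 25.37 TPM. In Ctla4, unlike Btla and Pdcd1, replicate 1 was the highest library.

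Lag3, Tigit, Cd160 and Havcr2 also encode inhibitory receptors. Lag3 (ENSMUSG00000030124.2, chr6:124904361-124911705, minus strand, 2109 exon bases), a relative of Cd4 whose product binds MHC class II, had 300, 179 and 86 counts. Its level was 63.09, 66.54 and 25.65 TPM, close to Pdcd1 in each library. Tigit (ENSMUSG00000071552.4, chr16:43648861-43664184, minus strand, 963 exon bases) competes with CD226 for the ligand PVR. It had 12, 21 and 4 counts, which gave 5.527, 17.1 and 2.612 TPM with exact 95% intervals of 2.856 to 9.655, 10.58 to 26.13 and 0.7118 to 6.689. Replicate 2 lay above the intervals of the other libraries although its count total was the lowest. Low counts of this size scattered in replicate 2 in general: of 846 coding genes with 8 to 16 counts in replicate 1, 43.7% had none in replicate 2 and 9.1% had 21 or more there. In replicate 3 the share of the same genes with no count was 3.9%. Whether this scatter sets the level of Tigit in replicate 2 was not tested.

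Cd160 (ENSMUSG00000038304.14, chr3:96798763-96829351, minus strand, 2642 exon bases) encodes a lipid-anchored receptor that, like BTLA, binds HVEM. It had 31, 31 and 19 counts, or 5.204, 9.198 and 4.523 TPM, with replicate 2 again the highest. Cd160 was the 1 gene of the 10 with exons overlapped by exons of the other strand, beside 8189 of all 50600 genes. The overlap is 68 bases long and is shared with Pdzk1 (chr3:96829284-96870926, plus strand), a scaffold protein gene better known from kidney and liver, which had 688, 401 and 654 counts. Per kilobase Pdzk1 had 16.5, 9.61 and 25.6 times the counts of Cd160. Its exons also overlap those of Gpr89, on the other side, by 1333 bases, and Gpr89 (chosen with its values known) had 98, 20 and 23 counts. How many of the Cd160 counts lie in the shared 68 bases is not known from gene totals. Of 676 coding genes with 25 to 37 counts in replicate 1, 11.1% had none in replicate 2 and 13.9% had 31 or more there.

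Havcr2 (ENSMUSG00000020399.14, chr11:46454935-46481255, plus strand, 2721 exon bases) encodes TIM-3, a receptor known from interferon-producing T cells and from exhausted T cells. It had 0 counts in each library. A count of 0 allows up to 3 counts, or 0.489, 0.8643 and 0.6934 TPM in replicates 1, 2 and 3. By point level, the lowest ratio to that floor over the libraries was 3.77 for Tigit, 6.52 for Cd160 and 84.9 for Cd200. These ratios leave out the counting error of Tigit, Cd160 and Cd200 themselves. In replicate 3 the interval of Tigit starts at 0.7118 TPM, below the upper limit of 0.8527 TPM for Havcr2. Med7, a coding neighbour 12213 bases away that was chosen with its values known, had 81, 34 and 21 counts, though its exons overlap opposite-strand exons.

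Icos (ENSMUSG00000026009.14, chr1:60977927-61000320, plus strand, 3430 exon bases), the costimulatory member, was the lowest of the 7 genes above 10 TPM. It had 168, 73 and 51 counts, or 21.72, 16.68 and 9.352 TPM, with replicate 1 the highest and replicate 3 the lowest. Icos lies 62094 bases downstream of Ctla4, and Cd28, which was chosen with its values known, lies 113640 bases before Ctla4, all on the plus strand. Cd28 stood at 44.97 TPM ± 17.29 (SD, n = 3). The log2 ratio of Cd28 to Ctla4 was 0.17 ± 0.179, with ratios of 1.10, 1.28 and 1.00 in replicates 1, 2 and 3, a difference between the costimulatory receptor and its inhibitory competitor that is smaller than its spread. Ctla4 exceeded Icos by 1.33 ± 0.101 on the log2 scale, with ratios of 2.44, 2.38 and 2.71, and Cd28 exceeded Icos by 1.5 ± 0.101. The order Cd28 or Ctla4 over Icos was thus the same in each library, with a spread far smaller than the difference.

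Cd274 and Cd200 encode ligands. Cd274 (ENSMUSG00000016496.7, chr19:29367455-29388095, plus strand, 3622 exon bases) is the gene of PD-L1, which T cells also carry after activation. It had 448, 176 and 149 counts, or 54.86, 38.09 and 25.87 TPM, highest in replicate 1 and lowest in replicate 3. Pdcd1lg2, the PD-L2 gene 22823 bases away (chosen with its values known), was at 11.32, 2.859 and 3.059 TPM, and Cd274 exceeded it 4.84, 13.3 and 8.46 times. Plgrkt, on the other strand 64 bases from Cd274 and chosen in the same way, had 105, 92 and 54 counts. Cd200 (ENSMUSG00000022661.14, chr16:45382135-45409053, minus strand, 3321 exon bases) encodes a ligand that restrains myeloid cells through CD200R1. It had 1216, 539 and 311 counts, or 162.4, 127.2 and 58.9 TPM, and lay above 96.8% of protein-coding genes by mean TPM. Cd200 and Btla are adjacent coding genes on opposite strands, 129239 bases apart, and were the 2 highest of the 10.

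The order of the genes was mostly the same in each library. Among the 36 pairs of detected genes, 32 had the same order in all 3 libraries. Of the 8 pairs of neighbours in the order of mean TPM, 4 did: Cd200 over Btla, Btla over Pdcd1, Pdcd1 over Lag3, and Ctla4 over Icos. In an exact sign-flip permutation test with 3 libraries, two-sided, the smallest possible p is 0.25, which these 4 pairs reached, so no pair can pass a threshold of 0.05. The other 4 pairs, Lag3 with Cd274, Cd274 with Ctla4, Icos with Tigit and Tigit with Cd160, changed order in 1 library each.

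Cd200 exceeded Btla by 0.437 ± 0.265 on the log2 scale (SD, n = 3), and in replicate 2 the exact 95% interval of the ratio, 0.97 to 1.25, includes 1. Btla exceeded Pdcd1 by 0.601 ± 0.214, with ratios of 1.73, 1.57 and 1.29. Pdcd1 and Lag3 could not be told apart by counts: the ratios were 1.03, 1.11 and 1.14, and each library's interval includes 1. Nor did Cd274 and Ctla4 differ beyond their spread, at a log2 ratio of 0.0068 ± 0.0588. Pdcd1 stood above Ctla4 by 0.466 ± 0.375, with ratios of 1.22, 1.86 and 1.16. The intervals were 1.03 to 1.45 in replicate 1, 1.47 to 2.37 in replicate 2 and 0.856 to 1.56 in replicate 3, so the last includes 1. Btla stood above Cd274 in each library, 2.04, 3.04 and 1.46 times, with all 3 intervals above 1.

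**Figure D2:**
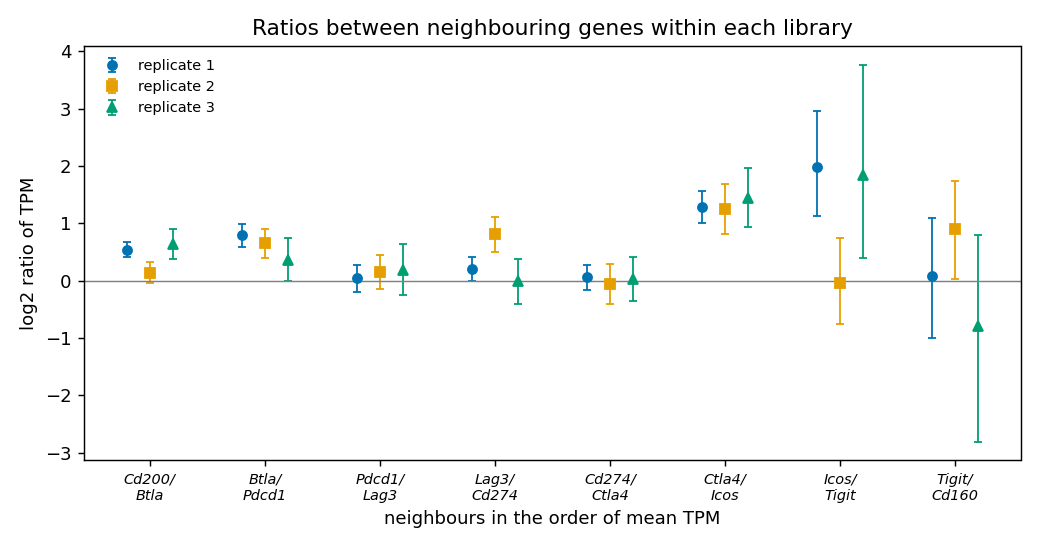
Log2 ratio of TPM between genes next to each other in the order of mean TPM, with 1 point per library and exact 95% counting intervals as bars; the line at 0 marks equal levels. Ctla4 over Icos is the pair whose 3 intervals all lie well above 0, Pdcd1 over Lag3 and Cd274 over Ctla4 have all intervals across 0, and Icos over Tigit drops to 0 in replicate 2.

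The 10 genes made up a summed level of 542.5, 504.2 and 219.5 TPM in replicates 1, 2 and 3. Within that sum the shares varied as follows. Cd200 took 29.9%, 25.2% and 26.8%, Btla 20.6%, 23.0% and 17.2%, and Pdcd1 11.9%, 14.7% and 13.4%. Ctla4 took 9.76%, 7.87% and 11.6%, and Icos 4.0%, 3.31% and 4.26%. Btla and Pdcd1 thus took their largest share in replicate 2, and Ctla4 and Icos took their smallest share there.

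Scaling by TMM, which sets libraries to a common level of most genes, gave a smaller drop in replicate 3. In TMM-scaled CPM (depth-scaled counts), Cd200 was at 229.5, 198.6 and 129.7, Btla at 155.2, 177.3 and 81.76, and Pdcd1 at 53.23, 67.07 and 37.54. Cd274, at 84.57, 64.86 and 62.16, and Ctla4, at 52.48, 43.48 and 39.21, varied least, with the highest library 1.36 and 1.34 times the lowest. On this scale 8 of 9 detected genes were lowest in replicate 3, Cd160 being the exception, against 47.0% of detected protein-coding genes. Replicate 2 was the highest for 5 of 9, namely Btla, Pdcd1, Lag3, Tigit and Cd160, against 36.0%. With TPM recomputed over genes that have no exon inside the body of an opposite-strand gene, 6 of 8 genes were lowest in replicate 3, against 43.5%, and Ctla4 and Cd274 were lowest in replicate 2. A lower level in replicate 3 therefore held on these 3 scales for Cd200, Btla, Pdcd1, Lag3, Icos and Tigit, and for Cd274, Ctla4 and Cd160 it depended on the scale. Over detected protein-coding genes with no such overlap, the median deviation from a gene's own mean on the log2(TPM + 1) scale was 0.36, 0.154 and -0.497 in replicates 1, 2 and 3.

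**Figure D3:**
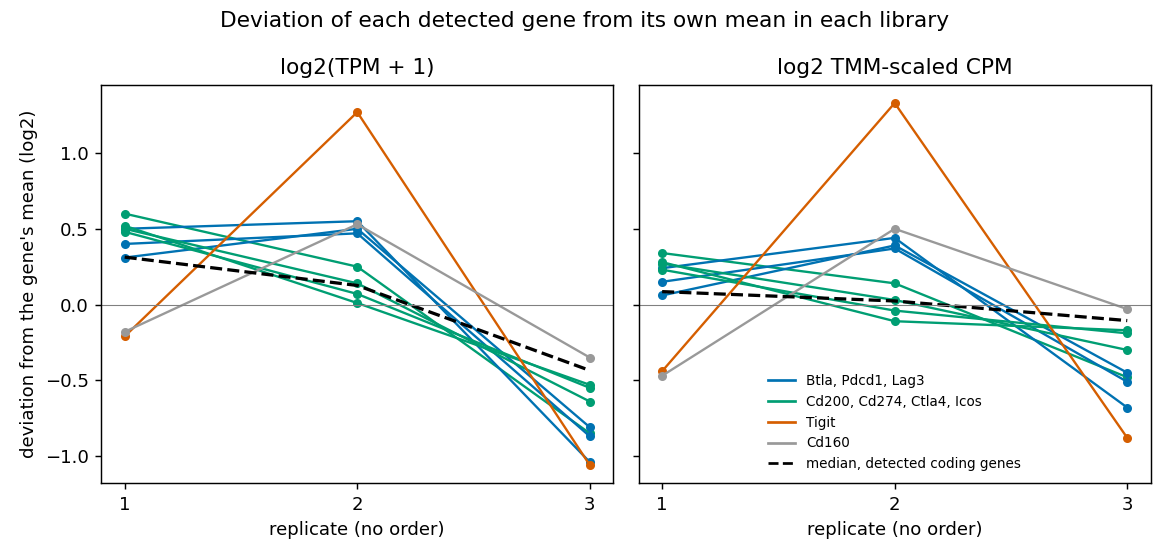
Deviation of each detected gene from its own mean over the 3 libraries, on the log2(TPM + 1) scale (left) and as log2 TMM-scaled CPM (right); lines join the values of 1 gene, replicates have no order, and the dashed line is the median of detected protein-coding genes. Btla, Pdcd1 and Lag3 are each highest in replicate 2, and Cd274, Ctla4, Icos and Cd200 are each highest in replicate 1. Cd200 falls further in replicate 3 than Cd274, Ctla4 and Icos, and Tigit stands apart in replicate 2.

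The spread between libraries, as the SD of log2(TPM + 1), had a median of 0.706 over the 9 detected genes, beside 0.499 over detected protein-coding genes. On the log2 TMM scale it was 0.428 beside 0.376. The biological coefficient of variation that edgeR estimates per gene had a median of 0.293 over the 8 genes with enough counts. It was 0.305 over the 8035 detected protein-coding genes with an estimate. Because edgeR draws these estimates towards a common value, 0.312 here, the nearness of the medians says little about the 8 genes. Tigit had too few counts for an estimate. By deviation on the TMM scale, the pairs of the 10 with the nearest profiles were Cd274 with Ctla4, at a distance of 0.0831, Pdcd1 with Lag3, at 0.113, and Ctla4 with Icos, at 0.143. Among 59 detected pathway genes the smallest distances were 0.0227 between Pdcd1 and Cd226, 0.0391 between Ctla4 and Irf4, and 0.0531 between Icos and Rc3h1. These are distances over 3 libraries and are given as a description.

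Of 14 genes for their ligands and counter-receptors, 6 were detected, beside 39.8% of protein-coding genes, and 4 had no count, beside 41.4%. The list's median was 0.245 TPM. The CD28 and CTLA-4 ligand Cd86, the ICOS ligand Icosl, Nectin2 and the LAG-3 ligand Fgl1 had no count, and Cd80 had 2, 0 and 1 (Fgl1 and Cd80 were chosen with their values known). Hmgb1, a nuclear protein that TIM-3 can bind, was at 45.69 TPM ± 11.7 (SD, n = 3), with exons overlapped by Uspl1, and Lgals9, which encodes galectin-9, was at 27.64 ± 11.12. The HVEM gene Tnfrsf14 was at 10.6 ± 3.09 TPM and its ligand gene Tnfsf14 (LIGHT) at 14.48 ± 9.482. Btla exceeded Tnfrsf14 8.88, 9.53 and 5.37 times in replicates 1, 2 and 3, so receptor and counter-receptor genes of this pair were both present, the receptor at the higher level.

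Costimulatory receptors outside the 10 were mostly higher than Icos. Of the 12 genes listed 10 were detected, beside 39.8% of protein-coding genes, and the list's median was 46.6 TPM. Tnfrsf4, the OX40 gene, was at 256.9 TPM ± 96.53 (SD, n = 3). Cd40lg, which encodes a ligand but was counted on this list, was at 182.8 ± 83.08. The adhesion receptor gene Cd2 was at 89.72 ± 34.22 and Tnfrsf18, the GITR gene, at 77.44 ± 18.82 with exons overlapped by Gm16008. Havcr1, the TIM-1 gene, had no count and Crtam had 7, 0 and 4. Of 10 further inhibitory receptor genes 3 were detected, beside 39.8% of protein-coding genes: Cd5, a brake on T cell receptor signalling, at 209.3 ± 72.03, Vsir, the VISTA gene, at 21.57 ± 9.821, and Cd96 at 17.68 ± 5.108. Cd96, like Tigit a receptor for PVR, exceeded Tigit by 1.45 ± 1.06 on the log2 scale. Klrg1, Pvrig and Entpd1 had no count.

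Genes for signalling and handling of the receptors were all detected, beside 39.8% of protein-coding genes. All 17 signalling genes passed 1 TPM in every library, led by the phosphatase gene Ptpn6 (SHP-1) at 225.6 TPM ± 59.9, whose exons are overlapped by another gene, the kinase genes Lck at 131.7 ± 48.39 and Csk at 109.6 ± 35.11, and the adaptor gene Sh2d2a at 57.19 ± 19.76 (SD, n = 3). All 11 genes for trafficking and stability did as well. They included Adam10, a protease that sheds LAG-3, at 37.28 ± 16.58, Ap2m1, a subunit of the adaptor that internalises CTLA-4, at 35.17 ± 9.729, Trat1, an adaptor that brings CTLA-4 to the surface, at 27.5 ± 11.42, and Cmtm6, which keeps PD-L1 at the surface, at 25.27 ± 11.84 TPM.

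Of 19 genes for transcriptional regulators of these receptors 12 were detected, beside 39.8% of protein-coding genes. Irf4, induced through the T cell receptor, was at 231.8 TPM ± 77.25, Tcf7, the TCF-1 gene, at 192.6 ± 44.24 and the AP-1 family gene Batf at 63.87 ± 31.12 (SD, n = 3). Foxp3, which is on this list too, had 1001, 536 and 1010 counts, with 963 of its exon bases overlapped on the other strand. Unlike Ctla4 and Icos, it was not lowest in replicate 3. Prdm1, the Blimp-1 gene, had no count, Maf had 1, 0 and 1 and Tox2 had 1, 0 and 0. Over all 6 lists 59 of 83 genes were detected, beside 39.8% of protein-coding genes. Exons were overlapped on the other strand in 16 of the 83, beside 8189 of all 50600 genes.

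**Figure D4:**
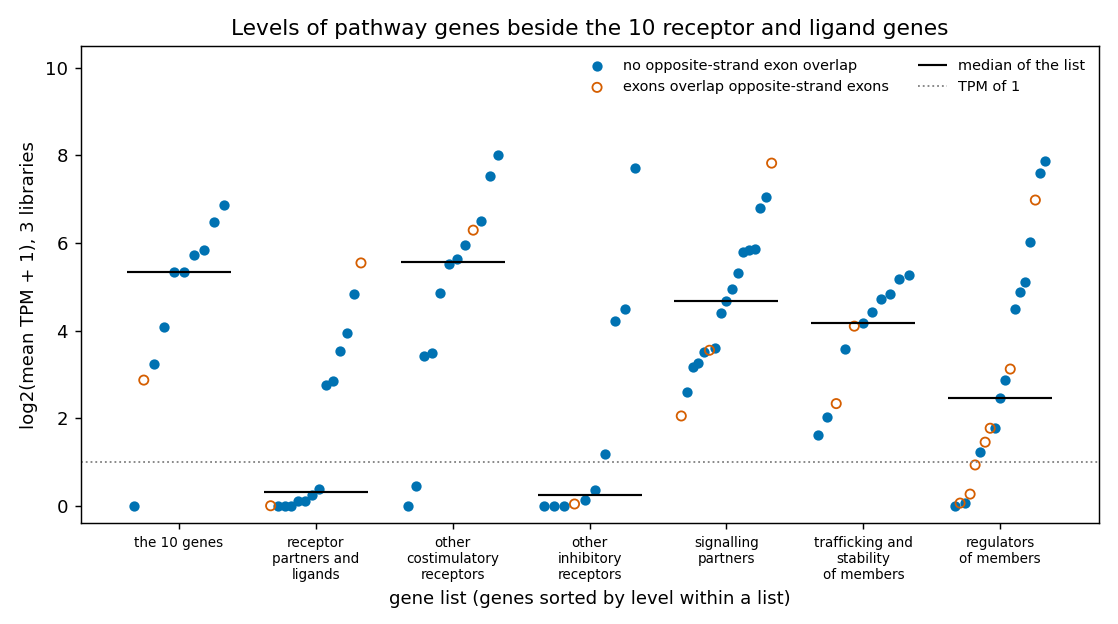
Mean level over 3 libraries, as log2(mean TPM + 1), of the 10 genes and of the 83 pathway genes by list, with 1 point per gene and a line at the list's median; open points have exons overlapped by exons of the other strand and the dotted line is 1 TPM. Signalling and trafficking genes all lie above the dotted line, while most receptor partners and other inhibitory receptors lie below it.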

How the data were processed

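RNA-seq gene tables of 3 Th1 samples were used. Per the file headers, the authors counted read pairs on exons with featureCounts v1.4.6-p4 (strand setting 1, both ends mapped) over GENCODE vM13 on mm10, and deposited whole-number counts with each gene's exon length. Neither the aligner's version nor the library kit is given in the sources used here.

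TPM was computed here from the deposited counts and lengths over all 50600 genes, because estimated counts and TPM had been assumed in the plan and were not found. Gene names and biotypes came from GENCODE vM21 (50376 matched). Exon overlaps came from coordinates in the tables. TMM factors and per-gene variation came from edgeR 4.0.16 (filterByExpr, intercept alone) and size factors from DESeq2 1.42.0. Log values use a pseudocount of 1, log2 ratios none. Ratio intervals are exact conditional binomial and level intervals exact Poisson, both at 95%. A floor of 3 counts was used in place of a count of 0. Totals ranged from 2568928 to 4764598 counts.

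The 10 genes and the lists were chosen with earlier results of these data known. The genes named are the 10, Pdzk1 as the opposite-strand gene overlapping them, the 4 highest of each list with up to 3 not detected, the nearest profiles for the 3 smallest distances, and the highest marker of each other cell type. Other genes, apart from the marker lists, were chosen with their values known, as stated beside them. The value of 1 marker gene is not reported here.

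Alternatives were a threshold of 5 TPM or 10 counts, other scalings, CPM, each replicate left out and, added after seeing the data, the longest coding transcript's length and TPM over genes with no exon inside an opposite-strand gene. Python 3.11.15, pandas 2.3.3, SciPy 1.17.1 and R 4.3.3 were used.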

Additional observations from a re-analysis of the deposited data

How the results depend on the processing

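No paired analysis was possible because the study has 1 group. The median spread of the detected genes, 0.706 as SD of log2(TPM + 1), fell to 0.405 with TMM scaling, 0.396 with DESeq2 size factors and 0.338 with TPM over genes free of opposite-strand overlap, all on the log2(value + 1) scale, and ranged from 0.256 to 0.79 with 1 replicate left out. The 0.256 is the value without replicate 3, so the spread rests on that library and on the scale. The count of detected genes was 9, 7 at a threshold of 5 TPM, 8 at 10 counts, and 9 with any replicate left out. Pathway genes detected went from 59 to 47 at 5 TPM. TPM over genes free of opposite-strand overlap, which leaves out Cd160, gave 8 detected genes and 43 of 58 pathway genes. The share of protein-coding genes detected at these changed settings is not given here, so these counts have no background beside them. Neighbours in the same order numbered 4 of 8, 5 in CPM and 5 to 6 with a replicate left out, when fewer libraries have to match. Without replicate 2 Cd160 lay above Tigit (log2 ratio of Tigit to Cd160 -0.353), and Icos over Tigit was 1.91 on the log2 scale. In CPM, a unit without length scaling, Cd274 lay above Lag3 and Pdcd1 and Cd160 above Tigit. The log2 ratios there were -0.449 for Lag3 to Cd274, 1.36 for Btla to Pdcd1, 0.643 for Cd274 to Ctla4, 0.767 for Ctla4 to Icos, 3.09 for Icos to Tigit and -1.39 for Tigit to Cd160. With the length of the longest coding transcript Ctla4 lay above Cd274 (-0.263 for Cd274 to Ctla4), Cd200 to Btla was 0.935 and Ctla4 to Icos 1.51. With the median of TMM-scaled values per kilobase Ctla4 lay above Cd274 and Cd160 above Tigit. Genes lowest in replicate 3 were 9 in TPM, 8 with TMM or DESeq2 scaling and 6 of 8 over genes free of overlap. Depth limits Tigit and Cd160, with 4 to 31 counts per library.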
